A study of Homo sapiens with 22 samples.

Results

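The expression of 10 genes that encode checkpoint ligands and receptors on leukemia cells was followed in MOLM-13 and NB4 cells treated with the FTO degrader FP54. They were chosen by symbol, and all 10 were found among the 20411 genes of each expression table. The members are the leukocyte immunoglobulin-like receptors LILRB1, LILRB2, LILRB3 and LILRB4, the collagen receptor LAIR1, HAVCR2 (which encodes TIM-3), the PD-1 ligands CD274 (PD-L1) and PDCD1LG2 (PD-L2), and CD47 with its receptor SIRPA. Both lines are wild type in the labels and come from acute myeloid leukemia (AML), NB4 from its promyelocytic form. Each was treated with DMSO or with 2 μM FP54 for 48 hours, and poly(A) RNA was sequenced from 3 libraries per treatment and line. No label ties the libraries of a group to separate cultures, so p-values measure the spread between these libraries only.

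Checkpoint receptors with an inhibitory tail, such as the LILRB proteins, LAIR1 and SIRPA, recruit the phosphatases SHP-1 and SHP-2 once SRC-family kinases have phosphorylated them, and so restrain the cell that carries them. Ligands such as PD-L1, PD-L2 and CD47 act on another cell, the first pair on T cells through PD-1 and CD47 on macrophages through SIRPA. FTO removes the m6A mark from RNA, and LILRB4 has been described as a gene whose mRNA depends on FTO in AML cells. LILRB4 is a receptor of monocytic leukemia cells that binds APOE. FP54 removes the FTO protein, so the FTO mRNA does not check the labels: its level (RPKM, mean ± SD, n = 3) was 1.01 ± 0.0767 in DMSO-treated and 1.01 ± 0.118 in FP54-treated MOLM-13 cells, and 2.73 ± 0.18 and 2.03 ± 0.0782 in NB4 cells, a log2 fold change of -0.41 (limma adjusted p = 0.0119).

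Values are RPKM, read numbers scaled to gene length and library total. The libraries held 16299804 to 17347002 reads on genes with DMSO and 5829796 to 19191189 with FP54 in MOLM-13 cells, and 20654085 to 22344124 and 10595695 to 13071454 in NB4 cells, so that MOLM-13 FP54 replicate 2 was the shallowest. Myeloid markers fitted the labels, with 13 of 14 reaching 1 RPKM in at least 1 MOLM-13 library and 11 of 14 in NB4 cells. Of 8 T and NK cell markers, 7 stayed below 1 RPKM in every MOLM-13 library (all except NKG7) and 5 in every NB4 library (all except CD3D, CD3G and NKG7). Their summed level was 74.0 to 78.9 RPKM with DMSO and 71.9 to 77.9 with FP54 in MOLM-13 cells, and 37.6 to 62.4 and 87.8 to 95.4 in NB4 cells. The 6 B cell markers summed to 0.822 to 1.04 and 0.478 to 1.25 RPKM in MOLM-13 cells and to 4.33 to 6.41 and 7.53 to 7.83 in NB4 cells, where CD79A and CD79B carried the signal. Of 6 erythroid and stromal markers, PECAM1 alone reached 1 RPKM in either line, and the list summed to 25.4 to 28.6 and 41.3 to 43.1 RPKM in MOLM-13 and 1.89 to 2.51 and 4.68 to 6.13 in NB4 cells. The part of other cells in any result was not tested. In these bulk samples, fewer cells of a type and less RNA per cell cannot be told apart.

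One NB4 library stood apart. In NB4 FP54 replicate 1, 27 genes with at least 20 reads were at 3 times or more the level of every other NB4 library, while no gene met this in any of the other 5 libraries. LILRB4 was among the 27, as were S100A9, S100A8, HLA-DRA and the Y-linked genes DDX3Y and RPS4Y1. The members' NB4 results are therefore also given without this library. Of the listed genes called in NB4 cells, LGALS9 (then below the filter) and INPP5D (log2 fold change 0.48, 0.53 with it) lost their call without it. In addition, the mean of 416 olfactory receptor genes, which blood cells are not expected to express, was 0.00168 to 0.00372 RPKM in NB4 DMSO libraries and 0.0496 to 0.0549 in NB4 FP54 libraries. It was 0.00386 to 0.00831 RPKM across the MOLM-13 libraries.

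With DMSO, SIRPA was the most abundant member per length in both lines, followed by CD47. In MOLM-13 cells the order of the mean levels was SIRPA (33.9 RPKM), CD47 (15.3), LILRB4 (7.92), LAIR1 (6.46), LILRB1 (1.38), LILRB3 (0.735), LILRB2 (0.683), HAVCR2 (0.481), CD274 (0.0828) and PDCD1LG2 (0.0414). Neighbors in that order overlapped between libraries for LILRB3 with LILRB2, LILRB2 with HAVCR2, and CD274 with PDCD1LG2. In NB4 cells the order was SIRPA (16.2 RPKM), CD47 (10.5), LAIR1 (1.51), HAVCR2 (0.512), CD274 (0.235), LILRB1 (0.0622), LILRB4 (0.0391) and LILRB2 (0.0328), with LILRB3 and PDCD1LG2 listed at 0 in every DMSO library. For LILRB3 and PDCD1LG2, 3 reads would have been 0.0359 to 0.0389 and 0.0552 to 0.0597 RPKM in those libraries. Only LILRB4 and LILRB2 among those neighbors with a value overlapped. The lines thus differed most in the LILRB genes, which MOLM-13 cells carried and NB4 cells held at 8 reads or fewer per DMSO library. LILRB4 was at 202 times its NB4 level in MOLM-13 cells, whereas HAVCR2 was at 0.94 times and CD47 at 1.46 times. These are levels of separately normalized tables, set side by side with no test.

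**Figure D1:**
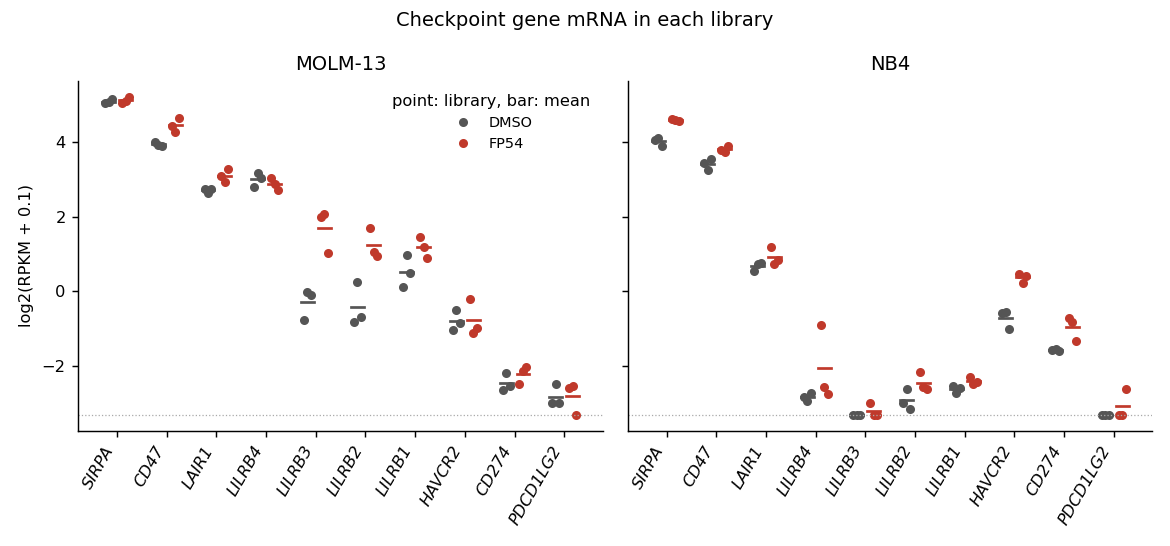
Level of each of the 10 genes in every library as log2(RPKM + 0.1), with DMSO in gray, FP54 in red, points for libraries and bars for means; the dotted line marks 0 RPKM. SIRPA and CD47 lead in both lines, LILRB2 and LILRB3 rise with FP54 in MOLM-13, and LILRB4 is near 0 in NB4 except in FP54 replicate 1 (0.433 RPKM).

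A gene was called changed where limma gave p below 0.01 and the log2 fold change reached 0.5 in size, among genes averaging 1 RPKM or more over the 6 libraries of a line. In MOLM-13 cells 7 of the 10 members passed that filter, and 3 were called higher with FP54 (LILRB3, LILRB2 and CD47). Of all 9710 genes tested, 9.3% were called higher and 9.04% lower. No member was called lower, whether at this cutoff, at an adjusted p below 0.05 or at an unadjusted p below 0.05. LILRB2 and LILRB3 passed the filter only through the FP54 libraries, since their DMSO means were below 1 RPKM, so the count over the members that passed is not evidence about the group. In NB4 cells 3 members passed (CD47, LAIR1 and SIRPA), and SIRPA was called higher, against 18.6% of 9853 genes called higher and 10.7% called lower. Again no member was lower at any of those 3 cutoffs. The NB4 background depended on scaling: 1834 genes were called higher and 1050 lower as deposited, 1609 and 1328 with median-ratio scaling, and 1280 and 1363 with quantile normalization, which moved the median log2 fold change of all NB4 genes from 0.07 to -0.035.

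**Figure D2:**
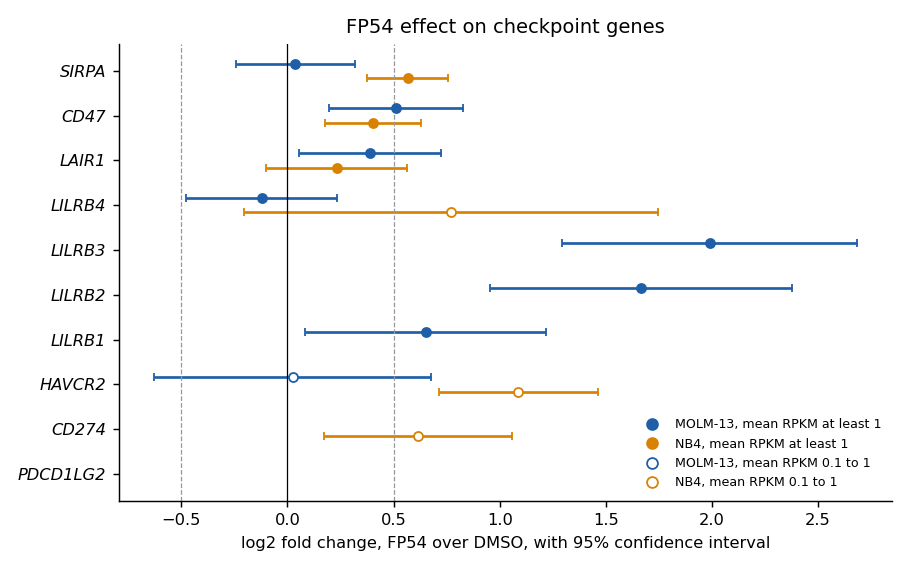
Log2 fold change of each gene, FP54 over DMSO, with its 95% confidence interval from limma, in MOLM-13 (blue) and NB4 (orange); open points are genes with a mean of 0.1 to 1 RPKM, fitted with a lower filter, and dashed lines mark a log2 fold change of 0.5 either way. LILRB3 (1.99) and LILRB2 (1.67) lie farthest to the right in MOLM-13, LILRB4 lies at -0.12, and genes without a point in a line were below 0.1 RPKM.

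The FTO-linked receptor gene LILRB4 did not pass the test in MOLM-13 cells. Its level was 6.90, 8.83 and 8.04 RPKM in the DMSO libraries and 8.17, 7.18 and 6.46 in the FP54 libraries. The groups overlapped, and the lowest DMSO value lay below 2 of the 3 FP54 values. The log2 fold change was -0.12 (95% confidence interval -0.48 to 0.23, limma adjusted p = 0.624), so that a fall by more than 0.48 on the log2 scale lay outside the interval. It rested on 265 to 992 reads per library. Of its transcript pieces of 75 bases, 11.6% were shared with another gene, mostly the overlapping pseudogene VN1R105P.

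Its relatives LILRB3 and LILRB2 were higher with FP54 in the same libraries. Both encode inhibitory receptors of myeloid cells, and LILRB2 binds HLA class I and angiopoietin-like proteins. LILRB3 was at 0.485, 0.887 and 0.833 RPKM with DMSO and at 3.86, 4.09 and 1.94 with FP54. Every FP54 value lay above every DMSO value, although FP54 replicate 3 lay well below the other FP54 libraries. The log2 fold change was 1.99 ± 0.31 (SE, limma adjusted p = 0.00454), a ratio of means of 4.48. LILRB2 was at 0.459, 1.08 and 0.513 RPKM with DMSO and at 3.15, 1.98 and 1.81 with FP54, again without overlap. Its log2 fold change was 1.67 ± 0.32 (SE, limma adjusted p = 0.00891), a ratio of means of 3.39. In all, 4 tested members had every FP54 value above every DMSO value in MOLM-13 cells (LILRB2, LILRB3, LAIR1 and CD47), which 20.2% of all tested genes did. LILRB2 and LILRB3 passed the filter only through the FP54 libraries, so this count is not evidence about the group.

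LILRB1, which encodes another HLA class I receptor, had values of 0.978, 1.86 and 1.30 RPKM with DMSO and 2.65, 2.15 and 1.75 with FP54. The groups overlapped through the highest DMSO and the lowest FP54 library. The log2 fold change of 0.65 (95% confidence interval 0.08 to 1.22) did not pass (limma adjusted p = 0.0997), but without DMSO replicate 2 it was 0.88 and was called. Together the 4 LILRB genes summed to 10.7 ± 1.92 RPKM (SD, n = 3) with DMSO and 15.1 ± 2.95 with FP54. LILRB4 made up 69.8 to 78.2% of that sum in the DMSO libraries and 45.8 to 54.0% in the FP54 libraries.

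Reads can be split between these genes and their neighbors in the cluster on chromosome 19. LILRB3 (chr19:54216278-54223506, minus strand, hg38) shared 16.9% of its 75-base pieces with other genes, most of them with LILRA6, and overlaps RPS9 on the other strand. LILRB2 (chr19:54273812-54281184, minus strand) shared 7.7%, mostly with LILRB1 (chr19:54617158-54638022, plus strand). LILRA6, an activating receptor gene, was at 0.158 to 0.178 RPKM with DMSO and at 1.74, 0.442 and 0.581 with FP54 in MOLM-13 cells, on 7 to 91 reads per library. It was listed at 0 in all 6 NB4 libraries. Of the 12 near copies of members found in the tables, 3 were tested in MOLM-13 and none was called, with a median log2 fold change of 0.43 against 0.0033 over all genes. With the filter lowered to 0.1 RPKM, LILRA6 (log2 fold change 1.71, limma adjusted p = 0.0215), LILRA1 (0.99, 0.032) and LILRA5 (1.00, 0.0525) were called higher in MOLM-13 cells, where 9.14% of 12173 genes were. LILRA1 went from 0.551 ± 0.0734 to 1.23 ± 0.406 RPKM and LILRA5 from 0.325 ± 0.079 to 0.786 ± 0.38 (SD, n = 3), both below the filter of 1 RPKM.

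Because only some LILRB genes of 1 cluster were called in MOLM-13 cells, the 250 bases before their annotated starts were compared (RefSeq, GRCh38.p14, where 7 of the 10 members had an entry). The parts of them outside any annotated exon are printed 5′ to 3′, with capitals for bases that are not identical within a pair. The most alike pair of genes was LILRB2 with LILRB1, at 155 identical bases in 175 aligned columns (88.6%). LILRB2 passed the test in MOLM-13 cells while LILRB1 did not. The confidence intervals of their log2 fold changes overlapped (0.95 to 2.38 and 0.08 to 1.22). A difference in response between genes was not tested for this or any other pair.
LILRB2, chr19:54281186-54281360, minus strand: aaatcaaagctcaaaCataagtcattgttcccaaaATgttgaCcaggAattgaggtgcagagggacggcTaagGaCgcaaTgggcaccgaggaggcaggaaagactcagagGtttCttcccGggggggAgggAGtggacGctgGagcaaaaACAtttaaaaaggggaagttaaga
LILRB1, chr19:54630236-54630409, plus strand: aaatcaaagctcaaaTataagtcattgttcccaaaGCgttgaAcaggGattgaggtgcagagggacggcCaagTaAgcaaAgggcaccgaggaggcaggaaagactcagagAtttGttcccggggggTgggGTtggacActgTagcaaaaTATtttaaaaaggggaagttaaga
Next came LILRB3 with LILRB4, at 60 identical bases in 84 columns (71.4%), again with 1 member that passed and 1 that did not. For this pair the intervals did not overlap (1.30 to 2.68 and -0.48 to 0.23).
LILRB3, chr19:54223187-54223257, minus strand: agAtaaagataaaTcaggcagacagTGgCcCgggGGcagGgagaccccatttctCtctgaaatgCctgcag
LILRB4, chr19:54662735-54662818, plus strand: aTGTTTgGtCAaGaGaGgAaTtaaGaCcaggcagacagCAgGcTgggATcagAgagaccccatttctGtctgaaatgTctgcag
Over the full 250 bases the identities were 90.5% and 72.5%, and LAIR1 with LILRB4 came to 54.1%. The letters AGGAAG, a longer form of the GGAA core bound by ETS factors such as PU.1, were searched on either strand. They occurred once in the 250 bases before LILRB3 and once before LILRB4. AGGAAG did not occur in the 250 bases that hold the printed LILRB2 and LILRB1 regions. The shorter GGAA does stand in both printed regions and was not searched for. AGGAAG was found once before another annotated start of LILRB2 and of LILRB1 and once before both LAIR1 starts. Of all 35116 promoter entries, 28.7% held it. Neither TTCNNNGAA (6.6% of entries) nor TATAAA (10.7%), nor the core of the interferon-stimulated response element (3.0%) occurred on either strand of these 4 regions. TTCNNNGAA did occur before another annotated LILRB2 start, at 118 bases from it.

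LAIR1, the inhibitory collagen receptor of the same cluster (chr19:54351384-54370558, minus strand), was at 6.64, 6.13 and 6.61 RPKM with DMSO and at 8.43, 7.46 and 9.66 with FP54 in MOLM-13 cells. The groups did not overlap, but the log2 fold change of 0.39 (95% confidence interval 0.05 to 0.72) missed the cutoff, with a limma adjusted p of 0.0972. In NB4 cells LAIR1 was at 1.36, 1.56 and 1.60 RPKM with DMSO and 2.16, 1.55 and 1.69 with FP54. There the groups overlapped, and the log2 fold change was 0.23 (95% confidence interval -0.10 to 0.56, limma adjusted p = 0.215), or 0.10 without FP54 replicate 1. With quantile normalization it turned to -0.19.

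CD47, the ligand that signals to macrophages not to engulf a cell, was higher with FP54 in MOLM-13 cells. Its level was 15.9, 15.2 and 14.9 RPKM with DMSO and 21.7, 19.3 and 25.1 with FP54, without overlap. The log2 fold change was 0.51 ± 0.14 (SE, limma adjusted p = 0.0325), just past the fold cutoff. The call was lost without any 1 of DMSO replicates 1, 2 and 3 or FP54 replicates 1 and 3, with log2 fold changes of 0.54, 0.51, 0.49, 0.52 and 0.41. It held without FP54 replicate 2, the shallowest library, at 0.60. In NB4 cells CD47 was at 10.7, 9.34 and 11.5 RPKM with DMSO and 13.8, 13.1 and 14.8 with FP54. All 3 FP54 values were above the DMSO values, and the log2 fold change was 0.40 ± 0.10 (SE, limma adjusted p = 0.00751), below the fold cutoff. It was 0.41 without FP54 replicate 1. CD47 (chr3:108043091-108091862, minus strand) shared none of its 75-base pieces with another gene.

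SIRPA, the receptor for CD47, passed the test in NB4 cells and not in MOLM-13 cells. In NB4 cells it was at 16.6, 17.1 and 14.9 RPKM with DMSO and at 24.3, 24.1 and 23.5 with FP54. The groups were far apart for their spread, and the log2 fold change was 0.57 ± 0.09 (SE, limma adjusted p = 0.000353). Without FP54 replicate 1 it was 0.56 (limma adjusted p = 0.00343). Among the 3 members tested in NB4 cells, SIRPA and CD47 had no overlap between groups with FP54 above DMSO, as did 34.3% of all genes tested in that line. In MOLM-13 cells SIRPA was at 32.7, 33.3 and 35.5 RPKM with DMSO and at 32.8, 34.5 and 37.0 with FP54. Those values overlapped almost entirely, and the log2 fold change was 0.04 (95% confidence interval -0.24 to 0.32, limma adjusted p = 0.858).

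SIRPB1, an activating relative of SIRPA, fell in NB4 cells. SIRPA (chr20:1894167-1940592, plus strand) shared 8.2% of its 75-base pieces with other genes, nearly all with SIRPB1. The NB4 level of SIRPB1 went from 7.10, 6.38 and 6.73 RPKM to 4.41, 4.42 and 4.81, with a log2 fold change of -0.56 ± 0.10 (SE, limma adjusted p = 0.000868). In MOLM-13 cells SIRPB1 averaged 12.3 ± 1.28 RPKM with DMSO and 8.77 ± 2.04 with FP54 (SD, n = 3), a log2 fold change of -0.50 that did not pass (limma adjusted p = 0.0821). The level of CD47 relative to SIRPA per library was 0.42 to 0.485 with DMSO and 0.559 to 0.68 with FP54 in MOLM-13 cells, and 0.545 to 0.776 and 0.543 to 0.632 in NB4 cells.

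**Figure D3:**
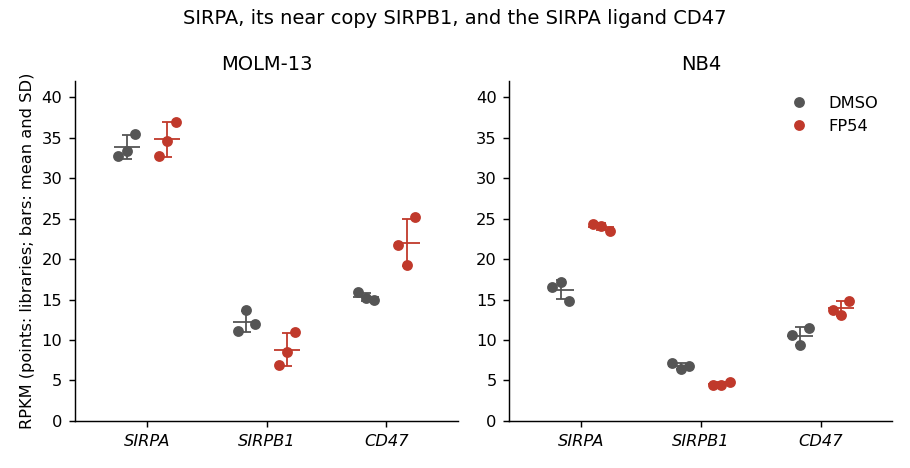
RPKM of SIRPA, SIRPB1 and CD47 in each library of MOLM-13 (left) and NB4 (right), DMSO in gray and FP54 in red, with bars for the mean and SD of 3 libraries. In NB4 cells SIRPA goes from 16.2 to 24.0 RPKM on average while SIRPB1 goes from 6.74 to 4.54, and in MOLM-13 cells the SIRPA points overlap.

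HAVCR2, the gene of the TIM-3 receptor (chr5:157085422-157142869, minus strand), was below the filter in both lines. In NB4 cells it was at 0.565, 0.574 and 0.396 RPKM with DMSO and at 1.28, 1.07 and 1.22 with FP54, on 47 to 85 reads per library. Every FP54 value was more than 2 times the DMSO mean of 0.512 RPKM. With the filter lowered to 0.1 RPKM, HAVCR2 was called higher at a log2 fold change of 1.09 ± 0.17 (SE, limma adjusted p = 0.000513), where 28.7% of 13163 genes were called higher. It was 1.04 without FP54 replicate 1 and 1.03 with the olfactory receptor mean subtracted, and was called in both. In MOLM-13 cells the values were 0.387, 0.601 and 0.456 RPKM with DMSO and 0.765, 0.355 and 0.407 with FP54, and the log2 fold change was 0.02 (95% confidence interval -0.63 to 0.68). The gene overlaps MED7 on the same strand, and how shared reads were assigned is not given in the sources used here.

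The PD-1 ligand genes were near the detection limit. CD274 was at 0.236, 0.240 and 0.229 RPKM with DMSO and at 0.505, 0.460 and 0.298 with FP54 in NB4 cells. The groups did not overlap, on 16 to 22 reads per library, but with the filter at 0.1 RPKM the log2 fold change of 0.62 (95% confidence interval 0.17 to 1.06) missed the cutoff on the unadjusted p (limma adjusted p = 0.0238). It was 0.80 and called without FP54 replicate 3, and 0.50 and not called without FP54 replicate 1. With the olfactory receptor mean subtracted the log2 fold change was 0.47. In MOLM-13 cells CD274 had 3 to 8 reads per library, and its highest value was 0.142 RPKM. PDCD1LG2 had at most 3 reads in any library of either line, so a change could not be detected at this depth.

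The LILRB genes were at a similarly low level in NB4 cells. LILRB4 was at 0.0383, 0.0297 and 0.0495 RPKM with DMSO and at 0.433, 0.0679 and 0.0484 with FP54. The first FP54 library held 29 reads and the other 5 libraries held 4 to 7. With the filter at 0.1 RPKM the log2 fold change was 0.77 (95% confidence interval -0.21 to 1.74, limma adjusted p = 0.158). With the olfactory receptor mean also subtracted it was 0.37 (limma adjusted p = 0.574). Without FP54 replicate 1 the gene fell below even this filter. In that library RPS4Y1 was at 4.50 RPKM, against at most 0.358 in the other NB4 libraries and 281 on average in MOLM-13 DMSO libraries, and DDX3Y was at 0.759, against at most 0.041 and 84.0. Whether RNA or reads of another sample are part of its LILRB4 value was not tested. S100A9, which encodes a subunit of calprotectin and has been described as a ligand of LILRB1, was at 26.5 RPKM in the same library and at 4.35 and 2.80 in the other FP54 libraries. LILRB1 had 5 to 8 reads and LILRB2 1 to 5 reads per NB4 library. LILRB3 had 1 read in all 6 NB4 libraries together.

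The difference in the FP54 effect between the lines was tested by an interaction term fitted in limma to the 12 libraries together. Of the 8849 genes that averaged 1 RPKM or more in both lines, 14.2% differed at an adjusted p below 0.05. Of the 3 members in that model, SIRPA differed, with an effect 0.53 ± 0.14 higher in NB4 than in MOLM-13 cells on the log2 scale (SE, limma adjusted p = 0.0218). Its adjusted p rose to 0.059 without NB4 FP54 replicate 1, and to between 0.0528 and 0.0673 without any 1 of MOLM-13 DMSO replicate 3, NB4 DMSO replicate 3 and NB4 FP54 replicates 2 and 3. CD47 differed by -0.11 (95% confidence interval -0.48 to 0.26) and LAIR1 by -0.16 (-0.60 to 0.29), neither passing. With the filter at 0.1 RPKM, where 18.3% of 11471 genes differed, HAVCR2 also differed, by 1.06 ± 0.35 (SE, limma adjusted p = 0.0473; no library was left out here), and LILRB4 did not (0.89, 95% confidence interval -0.18 to 1.96). LILRB2 and LILRB3 could not be compared, since NB4 cells held too little of either.

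**Figure D4:**
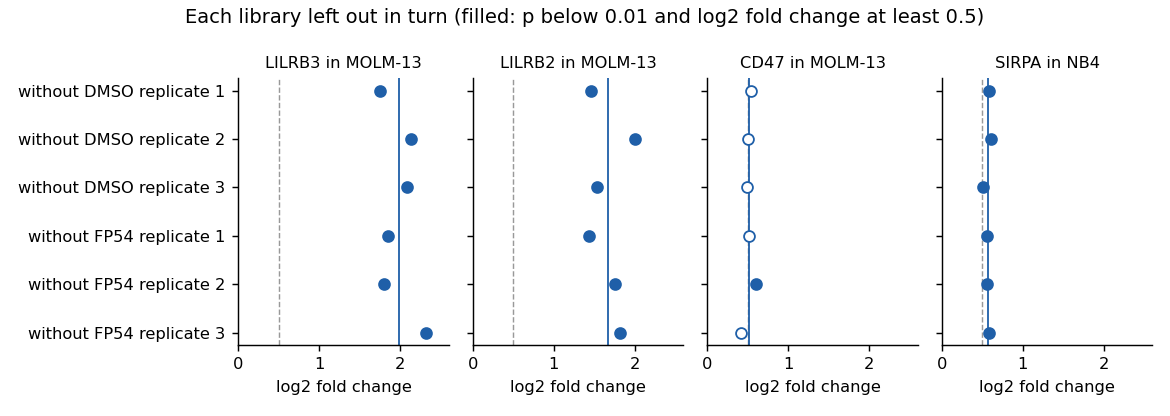
Log2 fold change of the 4 called genes with each library left out in turn; filled points pass both cutoffs (the dashed line marks 0.5 on the log2 scale), and the solid line is the value with all 6 libraries. LILRB3, LILRB2 and SIRPA pass in all 6 cases, and CD47 in MOLM-13 passes only without FP54 replicate 2.

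The widest change among the ligands of these receptors was that of THBS1 in NB4 cells. THBS1, which encodes thrombospondin, a secreted ligand of CD47, was at 1.21, 0.907 and 0.772 RPKM with DMSO and at 50.9, 52.5 and 48.3 with FP54. The log2 fold change was 5.59 ± 0.14 (SE, limma adjusted p = 8.57e-09). In MOLM-13 cells THBS1 was at 1.06 ± 0.578 and 0.771 ± 0.13 RPKM (SD, n = 3), below the filter. APOE, the LILRB4 ligand, rose in both lines, from 2.86, 5.04 and 4.68 RPKM to 9.14, 10.2 and 5.36 in MOLM-13 (log2 fold change 0.95, limma adjusted p = 0.0377) and from 0.80 ± 0.271 to 2.99 ± 0.37 (SD, n = 3) in NB4 cells (1.82, limma adjusted p = 6.91e-05). LGALS9, which encodes the TIM-3 ligand galectin-9, rose from 0.671 ± 0.067 to 1.42 ± 0.366 RPKM in NB4 cells (log2 fold change 0.95, limma adjusted p = 0.00153), and fell below the filter without FP54 replicate 1. In MOLM-13 cells LGALS9 was at 7.79 ± 1.18 and 6.52 ± 1.12 RPKM and did not pass.

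Of the 15 ligands and partners, 5 were tested in MOLM-13 cells, with APOE and S100A9 higher and none lower, and 7 in NB4 cells, with APOE, ANGPTL2, THBS1 and LGALS9 higher and HMGB1 and CALR lower. The median log2 fold change was -0.26 and 0.95, against 0.0033 and 0.07 over all genes. Among all genes, 9.3% and 18.6% were called higher and 9.04% and 10.7% lower. In NB4 cells APOE, THBS1 and LGALS9 passed the filter only through the FP54 libraries, and 0.95 is the value of LGALS9 itself, so the NB4 count and median are not evidence about the list. CALR encodes calreticulin, a signal for engulfment when it reaches the cell surface, and fell from 1871 ± 290 to 1252 ± 12.4 RPKM in NB4 cells (log2 fold change -0.57, limma adjusted p = 0.00194). HMGB1, a ligand of TIM-3, fell from means of 167 to 106 RPKM in NB4 cells (log2 fold change -0.66, limma adjusted p = 0.000175). In MOLM-13 cells CALR was at -0.53 (limma adjusted p = 0.0816) and HMGB1 at -0.58 (0.107). There the groups of both genes overlapped and neither was called. CD80, which binds PD-L1 and the T cell receptors CD28 and CTLA-4, was below the filter in both lines, at 0.394 ± 0.141 and 1.02 ± 0.0492 RPKM in MOLM-13 cells.

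Among 22 other checkpoint genes, 4 of the 9 tested were higher with FP54 and 2 lower in MOLM-13 cells, and 6 of the 8 tested were higher and none lower in NB4 cells. The median log2 fold change was 0.55 and 1.18, against 0.0033 and 0.07 over all genes, of which 9.3% and 18.6% were called higher and 9.04% and 10.7% lower. CD276 in MOLM-13 cells and NECTIN2 and SIGLEC7 in NB4 cells passed the filter only through the FP54 libraries, so these counts and medians are not evidence about the list. VSIR, the gene of the T cell inhibitor VISTA, rose from 19.7 ± 1.18 to 39.6 ± 7.43 RPKM in MOLM-13 cells (log2 fold change 0.99, limma adjusted p = 0.00454) and from 3.62 ± 0.111 to 7.89 ± 0.188 in NB4 cells (1.11, limma adjusted p = 7.37e-06). CD276, which encodes B7-H3, rose in both lines, with log2 fold changes of 1.22 (limma adjusted p = 0.00397) and 1.16 (3.32e-05). So did CD86, a costimulatory ligand, at 0.64 (limma adjusted p = 0.0481) and 1.77 (2.32e-06), and SIGLEC7, a sialic acid receptor, at 0.81 (limma adjusted p = 0.0113) and 1.90 (1.8e-06). SIGLEC10, the receptor for CD24, rose in NB4 cells from 2.19 ± 0.0961 to 6.06 ± 0.419 RPKM. In MOLM-13 cells SIGLEC10 went from 3.67 ± 0.419 to 5.48 ± 1.24 RPKM without overlap. The log2 fold change there was 0.55 and was not called (limma adjusted p = 0.0687). NECTIN2, a ligand of TIGIT, fell in MOLM-13 from 33.8 ± 2.25 to 22.1 ± 1.26 RPKM (log2 fold change -0.61, limma adjusted p = 0.0123) and rose in NB4 cells from 0.689 ± 0.201 to 1.68 ± 0.125 (1.21, limma adjusted p = 0.00047). PVR, another TIGIT ligand, fell in MOLM-13 cells (log2 fold change -0.80, limma adjusted p = 0.0373) and was at 0.08 in NB4 cells (limma adjusted p = 0.554).

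Of 16 genes of inhibitory receptor signaling, 15 were tested in each line. LYN, a SRC-family kinase that phosphorylates such receptors, was higher in both, and PLAUR and FYN were lower in MOLM-13 cells. In NB4 cells INPP5D (the SHIP-1 phosphatase), FGR, DOK2 and FYN were higher too, and none was lower. FGR passed the filter there only through the FP54 libraries. PTPN6, which encodes SHP-1, was at 118 ± 13.4 and 136 ± 22.3 RPKM in MOLM-13 cells and 37.2 ± 6.15 and 35.3 ± 0.668 in NB4 cells, and passed in neither. In all, 2 were called higher and 2 lower in MOLM-13 cells, and 6 higher and 0 lower in NB4 cells. Over all genes tested, 9.3% were called higher and 9.04% lower in MOLM-13 cells, and 18.6% and 10.7% in NB4 cells. The median log2 fold change of the list was 0.18 in MOLM-13 and 0.29 in NB4 cells, against 0.0033 and 0.07 over all genes. Because of the way FGR passed, the NB4 count and median are not evidence about the list.

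Of 16 regulators of PD-L1 and CD47, 15 were tested in each line. JAK1, a kinase of the interferon pathway that induces PD-L1, was higher in both lines, with log2 fold changes of 0.79 in MOLM-13 (limma adjusted p = 0.0102) and 0.69 in NB4 cells (0.00176). In NB4 cells CMTM4, which stabilizes PD-L1, and HIF1A were higher as well and MYC was lower, from 133 ± 8.85 to 69.6 ± 5.55 RPKM. MYC was at 56.5, 13.8 and 40.2 RPKM with DMSO and 5.91, 11.8 and 18.8 with FP54 in MOLM-13 cells, where it did not pass. CMTM6, a partner of PD-L1, and QPCTL, which modifies CD47 so that SIRPA can bind, passed in neither line. In all, 2 were called higher and 0 lower in MOLM-13 cells, and 4 higher and 1 lower in NB4 cells. Over all genes tested, 9.3% were called higher and 9.04% lower in MOLM-13 cells, and 18.6% and 10.7% in NB4 cells. The median log2 fold change of the list was 0.20 and 0.33, against 0.0033 and 0.07 over all genes.

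Myeloid markers also changed. Of 12 tested in MOLM-13 cells, PTPRC, CSF3R, CSF1R and ITGAM were higher and MPO lower, and of 11 tested in NB4 cells, PTPRC, CSF3R and ITGAM were higher and MPO, PRTN3, AZU1 and FCGR1A lower. Over all genes tested, 9.3% were called higher and 9.04% lower in MOLM-13 cells, and 18.6% and 10.7% in NB4 cells. ITGAM, which encodes the integrin CD11b of maturing myeloid cells, rose from 14.8 ± 1.07 to 23.5 ± 3.19 RPKM in MOLM-13 and from 3.64 ± 0.319 to 14.3 ± 1.02 in NB4 cells (log2 fold changes 0.65 and 1.95, limma adjusted p = 0.0153 and 3.46e-07). MPO, the granule myeloperoxidase of immature myeloid cells, fell from 16.1 ± 2.92 to 3.79 ± 0.741 and from 2170 ± 119 to 1116 ± 33.6 RPKM (-2.06 and -0.96, limma adjusted p = 0.000985 and 1.28e-05). The other markers tested in MOLM-13 cells were not called. Their log2 fold changes were -0.03 for ELANE, -0.25 for PRTN3, 0.27 for AZU1, 0.28 for LYZ, -0.41 for FCGR1A, 0.09 for CD33 and 0.16 for SPI1. In NB4 cells FCGR1A was at -1.07 and LYZ, not called, at -0.17. The median log2 fold change of the list was 0.22 in MOLM-13 and -0.17 in NB4 cells, against 0.0033 and 0.07 over all genes. Their part in the changes of LILRB2, LILRB3, CD47 and SIRPA was not tested.

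The genes whose pattern was most like that of LILRB4 over the 12 libraries were DDX3Y, ZFY, RPS4Y1, KDM5D and MS4A4E. Pearson's r with LILRB4 in log2(RPKM + 0.1) was 0.998 for DDX3Y and 0.994 for each of the others, among 10182 other genes with a mean of at least 1 RPKM. The first 4 lie on the Y chromosome. MS4A4E was at 4.79 RPKM with DMSO and 4.75 with FP54 on average in MOLM-13 cells and at 0.0107 and 0.106 in NB4 cells. The points share their cell line, and these values describe the gap between the lines, not the treatment.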

How the data were processed

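The 12 mRNA libraries of the series' 22 samples were used, 3 per treatment and line; m6A-seq and polysome profiling (10 samples) were not analysed here. According to the paper's methods, the authors trimmed reads with Cutadapt 4.8, removed duplicates, aligned to hg38 with STAR 2.7.11b, counted protein-coding GENCODE genes with featureCounts 2.0.3 and deposited RPKM. Gene lengths, library totals and strand settings are not given in the sources used here. Samples were grouped by title, and the line of each table rests on its name. Read numbers were recovered as RPKM times GENCODE exon length, known for 20330 of 20411 genes, and 98.5 to 99.2% of values up to 50 reads came within 0.05 of a whole number. Floors of 3 reads cover counting error only, and limma's 95% intervals the spread between libraries.

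Log2(RPKM + 0.1) was fitted with limma 3.58.1 (R 4.3.3; lmFit, eBayes with trend) over all genes averaging 1 RPKM or more, with Benjamini-Hochberg adjustment over all genes tested. The study's cutoff (p below 0.01, log2 fold change of 0.5 or more in size) defined a call. The paper applied it to DESeq2 results from read counts, so the calls made here are not the same as its own. Fold changes on this scale understate those of low genes. An exact permutation test of 3 against 3 cannot go below p = 0.1. The members and gene lists were chosen with earlier results of these data known, and no list was tested as a set. Some listed genes are not reported here. Named genes are the 10 members, listed genes past the call in a line or related directly to a member, FTO, and the 5 genes most like LILRB4. Same-numbered libraries did not deviate together, so no block by replicate number was used in the main fit. Alternatives were other pseudocounts, filters, scalings, variance models and cutoffs, a replicate block, limma-voom on recovered reads and each library left out. Olfactory receptor subtraction, and the filter at 0.1 combined with it or with a left-out NB4 library, were added after seeing the data. So was the fit of listed genes in NB4 cells without FP54 replicate 1. The fit was tested on simulated data. Tables were read in Python 3.11.15 (numpy 2.4.6, pandas 2.3.3) and drawn with matplotlib 3.10.9.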

Additional observations from a re-analysis of the deposited data

Results flagged for a closer look

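The FP54 effect on SIRPA was 0.53 higher in NB4 than in MOLM-13 cells on the log2 scale, a difference between the lines by the interaction term in limma (adjusted p = 0.0218). All 3 NB4 FP54 libraries lay above the NB4 DMSO libraries, and the MOLM-13 groups overlapped. The limma adjusted p for this difference was 0.04996 with median-ratio scaling and 0.059 with the replicate block. It was 0.0528 to 0.0673 without any 1 of MOLM-13 DMSO replicate 3, NB4 DMSO replicate 3 and the NB4 FP54 replicates.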

How the results depend on the processing

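No member was called lower under any alternative run. LILRB2 and LILRB3 in MOLM-13 cells were called wherever they passed the filter, although with no filter their adjusted p was 0.118 and 0.0885, and SIRPA in NB4 cells was called throughout (0.50 to 0.62). The count of members higher in MOLM-13 cells was 3, and 1 with the filter at 5 RPKM, which drops LILRB2 and LILRB3. CD47 lost its call with a pseudocount of 1 (0.49) and with the replicate block (limma adjusted p = 0.0663). With 1 library left out the count was 2 to 3, and without DMSO replicate 2 LILRB1 replaced CD47. The count of members higher in NB4 cells was 1, and 2 with the adjusted p cutoff (CD47 added) or with the filter at 0.1 RPKM or none (HAVCR2 added). The count with a line difference was 1, 0 with an adjusted p below 0.01 or with the replicate block, 2 with the filter at 0.1 RPKM or none, and 0 to 1 with 1 library left out.

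The block changed no call but those of CD47 in MOLM-13 cells and the SIRPA line difference, and the replicate numbers did not pair the libraries: same-numbered correlations were -0.262, -0.134 and -0.058 in MOLM-13 and -0.143, 0.075 and 0.123 in NB4 cells. Some differently numbered MOLM-13 libraries did deviate together. The correlation was 0.593 for DMSO replicate 1 with FP54 replicate 3, 0.494 for 2 with 1 and 0.475 for 3 with 2. A block by replicate number cannot take up such a structure, and no block by these pairs was run. Values that changed sign, neither called, were SIRPA in MOLM-13 cells without FP54 replicate 3 (-0.0080; up to 0.0787 without FP54 replicate 1) and LAIR1 in NB4 cells with quantile normalization (-0.19). The causes were not tested. Over all genes, calls in MOLM-13 cells were 903 higher and 878 lower, 530 lower with no filter and 509 higher and 560 lower with the filter at 5 RPKM. With 1 library left out they were 540 to 1122 higher and 462 to 1213 lower, under the main counts by over 1.5 times for higher genes without DMSO replicate 3 (593) or FP54 replicate 1 (540) and for lower genes without DMSO replicate 1 (545), DMSO replicate 3 (462) or FP54 replicate 1 (503). In NB4 cells the 1834 higher became 4265 with no filter, 3777 with the filter at 0.1 RPKM, 789 at 5 RPKM and 2935 with the adjusted p cutoff, and the 1050 lower became 2164 with the last. The 1258 genes with a line difference became 2094 with the filter at 0.1 RPKM. Without NB4 FP54 replicate 1, LGALS9 fell below the filter and INPP5D lost its call, and no other listed gene gained or lost a call in NB4 cells. Depth limits PDCD1LG2 in both lines (at most 3 reads per library), CD274 (3 to 8 reads in MOLM-13 and 16 to 22 in NB4 cells) and the LILRB genes in NB4 cells (at most 8 reads, apart from 29 for LILRB4 in FP54 replicate 1).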

Other observations

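Of the 27 genes that stood apart in NB4 FP54 replicate 1, chosen after their values were seen, some were nearly absent from MOLM-13 cells and others were high there. PRAME was at 0.818 RPKM there, against at most 0.113 in the other NB4 libraries, and TGFBI at 0.587 against at most 0.0297. PRAME was listed at 0 in every MOLM-13 library, and TGFBI averaged 0 with DMSO and 0.00809 RPKM with FP54. Others were at higher levels in MOLM-13 DMSO libraries, such as RPS4Y1 and DDX3Y, and LAMP5, at 1.02 RPKM in that NB4 library and 74.0 on average in MOLM-13. S100A8 was at 3.92 RPKM in that library, against at most 0.316 in the other NB4 libraries.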
